A study of Mus musculus with 12 samples.

Results

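The 7 genes described here make the molecules that display peptides on MHC class I: the chains H2-K1, H2-D1 and H2-T23, the partner chain B2m, the peptide transporter subunits Tap1 and Tap2, and the loading factor Tapbp. They were taken by symbol from the 23238 symbols of the deposited files, and all 7 were found. The series measured RNA of mouse meninges, the membranes around the brain, at 20 weeks of age, after magnetic sorting for lymphatic endothelial cells, from 3 to 4 mice of each strain. The titles give 3 groups, SJL_B6, AD_B6 and AD_TG, with 4 of the 12 libraries in each. Every library carries the strain label C57BL/6. The labels spell out neither AD, SJL nor TG, and give no transgene, promoter, sex or H2 haplotype. Which libraries share animals is not stated either, and the p-values therefore reflect only how far these samples vary, which may be technical. H2-K1 and H2-D1 are among the most variable genes between mouse strains, so without a haplotype a difference in alleles and a difference in amount cannot be told apart.

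Nucleated cells use class I to show fragments of their own proteins to CD8 T cells. Proteasomes cut proteins into peptides, the Tap1 and Tap2 pair pumps the peptides into the endoplasmic reticulum, and Tapbp (tapasin) holds an empty class I chain with its B2m partner beside the transporter until a peptide fits. H2-K1 and H2-D1 are the classical chains, and H2-T23 makes Qa-1, a non-classical chain read by receptors of NK cells and some T cells. Interferons and NF-kappa B raise transcription of many of these genes through short elements before the start site, and the regulator Nlrc5 acts on the same promoters.

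The sequence before the start site is shown for the 3 members whose levels varied together, H2-K1, H2-D1 and B2m, and for H2-T23, which did not follow them. The RefSeq table of GRCm38.p6 held 6 of the 7 members, and Tap2 was not matched. Each line gives the 250 bases before the start, 5′ to 3′ on the gene's strand. Capitals mark matches on either strand to an interferon-type element (GAAA, any 2 bases, GAAA) or an NF-kappa B-type element (GGG, any 4 bases, CCC). The windows are chr17:34000348-34000597 on the minus strand for H2-K1, chr17:35262844-35263093 on the plus strand for H2-D1, chr2:122147437-122147686 on the plus strand for B2m and chr17:36032702-36032951 on the minus strand for H2-T23.
H2-K1: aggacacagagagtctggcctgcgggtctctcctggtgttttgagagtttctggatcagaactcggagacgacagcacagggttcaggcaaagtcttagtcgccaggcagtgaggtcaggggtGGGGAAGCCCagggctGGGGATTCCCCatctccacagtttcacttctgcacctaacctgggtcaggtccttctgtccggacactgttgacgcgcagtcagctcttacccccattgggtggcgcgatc
H2-D1: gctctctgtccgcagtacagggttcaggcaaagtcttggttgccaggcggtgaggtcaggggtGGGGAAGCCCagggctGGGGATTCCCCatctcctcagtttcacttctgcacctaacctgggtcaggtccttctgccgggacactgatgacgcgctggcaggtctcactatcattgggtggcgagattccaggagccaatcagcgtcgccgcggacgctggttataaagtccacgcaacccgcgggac
B2m: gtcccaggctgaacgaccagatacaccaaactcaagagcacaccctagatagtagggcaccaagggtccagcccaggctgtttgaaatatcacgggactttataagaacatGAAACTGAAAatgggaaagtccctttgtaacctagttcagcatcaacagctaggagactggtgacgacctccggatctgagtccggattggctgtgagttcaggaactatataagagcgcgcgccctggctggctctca
H2-T23: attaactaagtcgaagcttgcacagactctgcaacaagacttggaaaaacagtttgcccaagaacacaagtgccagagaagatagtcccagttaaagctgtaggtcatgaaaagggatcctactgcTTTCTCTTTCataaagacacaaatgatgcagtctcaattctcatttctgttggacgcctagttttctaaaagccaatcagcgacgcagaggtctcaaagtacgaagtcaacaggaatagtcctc

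The H2-K1 and H2-D1 windows resemble each other, shifted by 60 bases: 166 of 190 overlapping bases (87.4%) were identical, with an unbroken shared run of 47. Both hold 3 matches to the NF-kappa B-type letters, 2 of which overlap, and the windows of the 4 other matched members hold none. The interferon-type letters were found in B2m and H2-T23 only among the 6 windows. Among 32851 windows of the same length, 10.3% held the NF-kappa B-type and 2.98% the interferon-type letters. A CCAAT box, the site of the factor NF-Y, was in all 6 windows (33.8% of all windows), and TGACG, the core of a cyclic AMP type element, was in 4 of 6 (17.8%). These matches describe letters and do not show binding. Only these exact patterns were searched, so a window without a match may still hold a variant of the element with other letters.

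The deposited values are log2(x + 1) of amounts scaled per library, called log2 values below. Estimated assigned reads ran from 4071532 to 9267212 per library, and 8748 to 12217 genes had reads, with the fewest in AD_B6 replicate 3. The title names raised DSCR1, the gene Rcan1, but no label says which group carries it. Rcan1 averaged 7.40 in SJL_B6, 8.79 in AD_B6 and 7.75 in AD_TG, and AD_TG minus AD_B6 was -1.04 (SE 1.04, adjusted p = 0.903 in limma). Prox1, the transcription factor that defines lymphatic endothelium, had no reads in AD_B6 or AD_TG. The 9 lymphatic endothelial markers made up 0.0178 to 0.0540% of a library, the 15 macrophage markers 0.229 to 0.675% and the 7 choroid plexus markers 0.236 to 8.64%. T and NK cell markers were nearly absent, with 5 or 6 of 8 without reads in each group. The class I values below therefore belong to the whole sorted mixture. In such bulk RNA, fewer cells of a type and less RNA per cell cannot be told apart.

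All 7 members were expressed, and all 7 passed the filter on low values (4 or more libraries at 10 or above on the linear scale). The classical chains and B2m had 2026 to 14204 estimated reads in every library. In replicate order, the H2-K1 values of SJL_B6 were 11.69, 13.30, 11.93 and 11.83, those of AD_B6 were 11.79, 11.58, 12.20 and 11.95, and those of AD_TG were 11.82, 11.75, 12.82 and 12.001. For H2-D1, SJL_B6 gave 11.22, 12.80, 12.003 and 12.03, AD_B6 gave 11.85, 10.93, 12.13 and 11.43, and AD_TG gave 12.06, 11.59, 12.62 and 12.03. The groups overlap for both genes, and SJL_B6 replicate 2 and AD_TG replicate 3 are the highest libraries for each, in that order. B2m, whose protein pairs with every class I chain, gave 12.23, 12.96, 12.63 and 12.04 for SJL_B6, then 11.79, 11.91, 12.63 and 12.20 for AD_B6, then 12.44, 11.77, 12.75 and 12.49 for AD_TG. The same 2 libraries lead for B2m, and the groups overlap again.

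**Figure D1:**
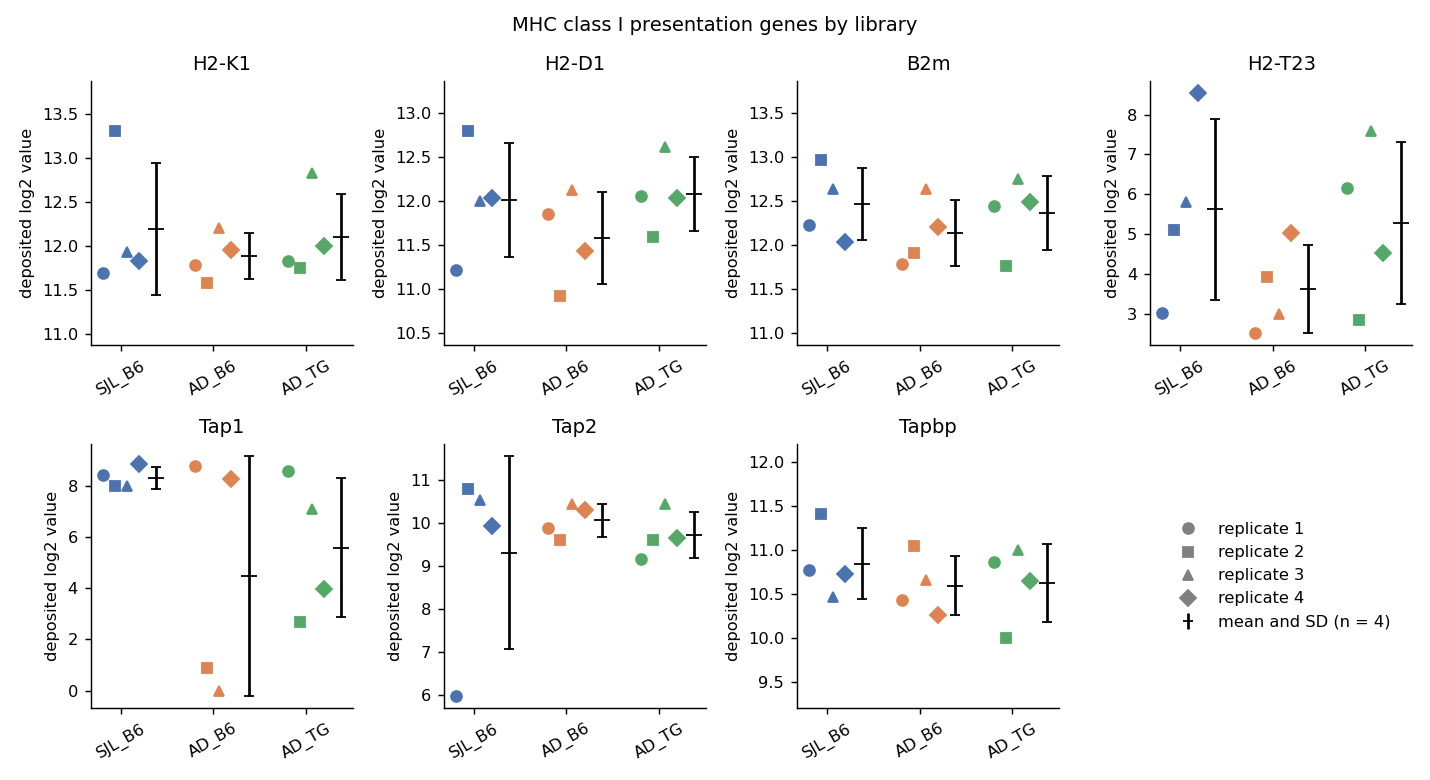
Deposited log2 values (y axis) of each member in every library, by group (x axis); marker shapes give the replicate, and the black bar is the mean with its SD (n = 4). The y ranges differ between panels. H2-K1, H2-D1 and B2m lie between 10.93 and 13.30 in all libraries, whereas Tap1 ranges from 0 to 8.78 in AD_B6.

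The remaining chain and the transporter were less evenly sampled. For H2-T23, SJL_B6 gave 3.02, 5.10, 5.81 and 8.54, AD_B6 gave 2.51, 3.93, 2.99 and 5.02, and AD_TG gave 6.15, 2.85, 7.58 and 4.53. The groups overlap, with 5 to 47 estimated reads in 10 libraries and 186 and 436 in the other two, AD_TG replicate 3 and SJL_B6 replicate 4. For Tap1, SJL_B6 gave 8.42, 7.99, 7.98 and 8.87, AD_B6 gave 8.78, 0.87, 0 and 8.29, and AD_TG gave 8.59, 2.68, 7.11 and 3.97. SJL_B6 was thus even, while AD_B6 and AD_TG each held high and low libraries. Behind these values lay 0 to 18 estimated reads in 4 libraries, AD_B6 replicates 2 and 3 and AD_TG replicates 2 and 4, and 134 to 546 in the other 8, with none between.

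Tap2, the partner of Tap1 in the transporter, did not share that pattern. Its values were 5.97, 10.80, 10.53 and 9.93 for SJL_B6, then 9.88, 9.60, 10.44 and 10.30 for AD_B6, then 9.16, 9.61, 10.45 and 9.65 for AD_TG. SJL_B6 replicate 1 was far below all other libraries, with 52 estimated reads beside 330 to 2510. Tapbp was the steadiest of the 7 over the 12 libraries (SD 0.38), with 10.77, 11.41, 10.47 and 10.73 for SJL_B6, then 10.43, 11.04, 10.66 and 10.26 for AD_B6, then 10.86, 10, 11 and 10.65 for AD_TG. Its groups overlap.

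**Figure D2:**
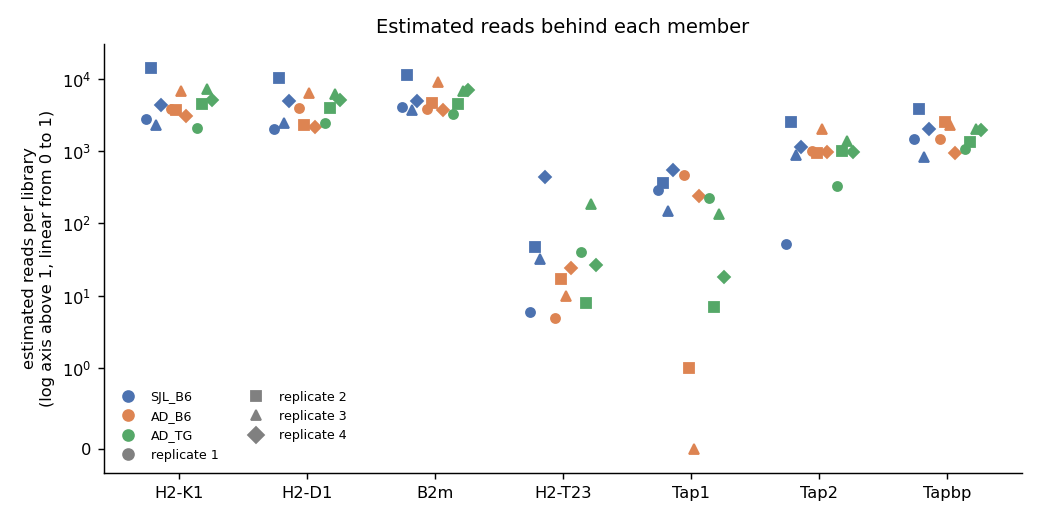
Estimated reads (y axis, logarithmic above 1 and linear from 0 to 1) behind each member (x axis) in every library; colours give the group and shapes the replicate. Tap1 splits into 4 libraries with 0 to 18 estimated reads and 8 with 134 to 546, and H2-T23 rests on 5 to 47 in 10 libraries.

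The spread of the abundant members was that of other genes at their level. The pooled within-group SD was 0.54 for H2-K1, beside a median of 0.54 over the 108 other tested genes whose mean lay within 0.5 of it, 0.54 for H2-D1 (median 0.51, 133 genes) and 0.40 for B2m (median 0.47, 81 genes). Tapbp varied less than most of its 519 neighbours in level (0.40 beside 0.62), and Tap2 more than 93.0% of 1081 (1.36 beside 0.80). The SD of Tap1, 3.14, was near the median of 2.98 over 1445 genes. For H2-T23 it was 1.88 beside 3.42 over 1378 genes, many of which had no reads in some libraries.

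H2-K1, H2-D1 and B2m varied together from library to library. After subtracting each group's mean, Pearson's r over the 12 libraries was 0.83 between H2-K1 and H2-D1, 0.77 between H2-K1 and B2m and 0.71 between H2-D1 and B2m, given as a description since the values share library, scaling and depth. Within a library, H2-K1 minus H2-D1 ran from -0.24 to 0.66 with an SD of 0.30, less than the SD of either gene alone over the 12 libraries (0.51 and 0.54). Tap2 had r = 0.72 with H2-D1, 0.58 with H2-K1 and 0.43 with B2m. The far lower SJL_B6 replicate 1 was among its points in each case, and r was not taken without it. Tapbp had r = 0.57 with H2-K1, 0.55 with B2m and 0.39 with H2-D1. Tap1 followed none of the others, with r from -0.09 to 0.34 over its 6 pairs, and -0.03 with its partner Tap2. Which of these relations come from the mixture of cells was not tested.

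**Figure D3:**
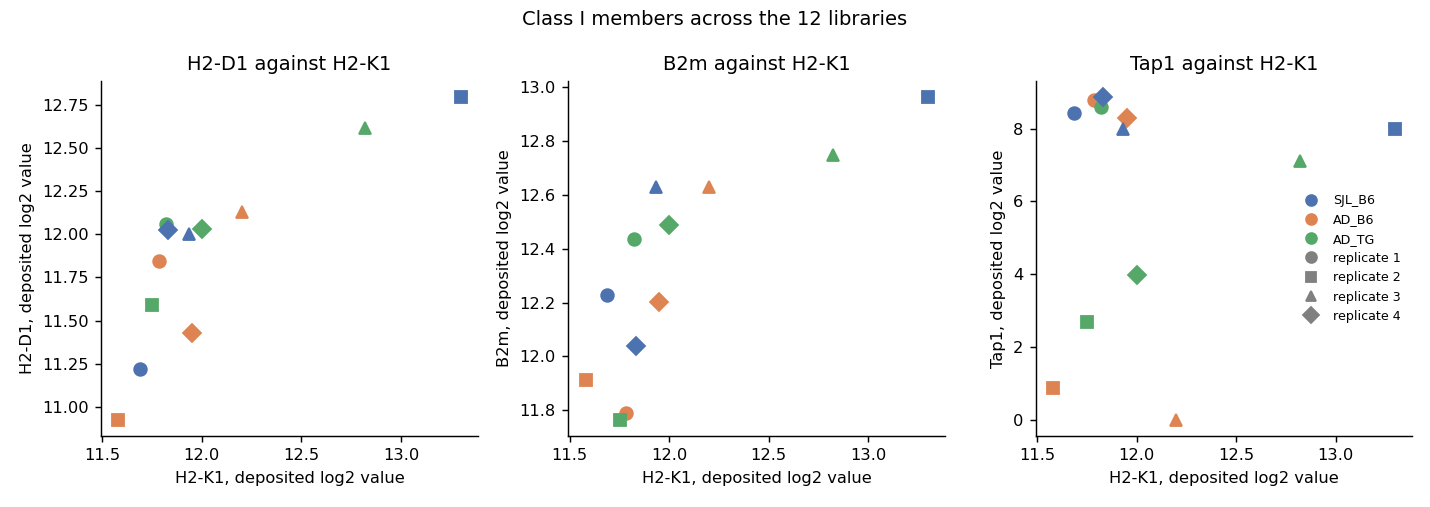
Deposited log2 values of H2-D1, B2m and Tap1 (y axes) against H2-K1 (x axis) in the 12 libraries; colours give the group and shapes the replicate. H2-D1 and B2m climb with H2-K1 up to SJL_B6 replicate 2 at 13.30, while Tap1 does not.

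The libraries at the ends of this range also differed in markers of other cells. SJL_B6 replicate 2, first of 12 for 5 of the 7 members, had the highest share of macrophage markers (0.675%) and of MHC class II genes (1.69%) and the lowest share of choroid plexus markers (0.236%). AD_TG replicate 3, second of 12 for H2-K1, H2-D1, B2m and H2-T23, had 0.540, 0.751 and 1.64% for these lists. AD_B6 replicate 2, lowest for H2-K1 and H2-D1, had 0.275, 0.570 and 2.48%, and the lowest share of pan-endothelial markers (0.0104%). Other libraries did not follow these pairings. The lowest macrophage (0.229%) and class II (0.407%) shares were in AD_B6 replicate 4, at rank 5 of 12 for H2-K1 and 10 for H2-D1. AD_B6 replicate 1 had a low choroid plexus share too (0.324%), but rank 9 for H2-K1 and 11 for B2m. The 8 meningeal fibroblast markers had their 3 highest shares in the 3 libraries highest for H2-K1: 0.827% in AD_B6 replicate 3, 0.653% in AD_TG replicate 3 and 0.467% in SJL_B6 replicate 2. Their 3 lowest shares were in the 3 libraries lowest for H2-K1: 0.165% in AD_TG replicate 2, 0.200% in AD_B6 replicate 2 and 0.232% in SJL_B6 replicate 1. By mean log2 value of the 8 markers these 3 libraries were again the lowest (8.58, 7.05 and 8.50). The match at the top did not hold by that measure: SJL_B6 replicate 2 stood at 9.05, below SJL_B6 replicates 3 and 4 at 10.32 and 10.07. Nor did the match at the bottom hold for the other abundant members. For H2-D1, AD_B6 replicate 4 (0.332%) had rank 10 of 12 and AD_TG replicate 2 rank 9. For B2m, AD_B6 replicate 1 (0.253%) had rank 11 and SJL_B6 replicate 1 rank 7. The part of any of these markers in the class I levels was not tested.

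By a rule set over the 4918 genes with reads in all 12 libraries and outside the class I pathway list, the genes most like the mean of the 7 members over the 12 libraries were Crlf2, Srebf1, Agbl5, Itgb2 and Nup98. Pearson's r was 0.82, 0.81, 0.80, 0.79 and 0.79 (Spearman's rho 0.85, 0.77, 0.72, 0.83 and 0.78). Without AD_B6 replicate 2 and AD_TG replicate 2, the libraries farthest from the median of that mean, r was 0.74, 0.68, 0.79, 0.82 and 0.84. That mean gives each member's log2 deviation equal weight, so it follows mainly Tap1, H2-T23 and Tap2, whose SDs over the 12 libraries were 3.30, 1.93 and 1.27. AD_B6 replicate 3, for example, had rank 3 of 12 for H2-K1 and H2-D1 but at -0.94 in the mean. As the highest of so many genes these carry no p-value. Crlf2 makes a cytokine receptor chain for TSLP, Srebf1 a regulator of lipid synthesis, Itgb2 the beta chain of leukocyte integrins and Nup98 a nuclear pore protein.

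Because the library kit reads transcript ends, the ends of the members were compared with all other mouse transcripts in GENCODE M21. Of the 251 windows of 50 bases in the last 300 bases of the longest coding transcript, none of Tap1, Tap2, Tapbp or B2m occurred in a transcript of another gene. For H2-K1 2 windows (0.797%) did, in H2-D1, for H2-D1 43 (17.1%) and for H2-T23 127 (50.6%), in transcripts of 75 other genes. Reads from such windows cannot be given to 1 gene, so H2-T23, and to a lesser degree H2-D1, are uncertain.

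AD_B6 and SJL_B6 share B6 in their titles and differ in AD and SJL, whose effects cannot be told apart. Of the 7 members, 6 had a lower mean in AD_B6 and Tap2 a higher one, beside 59.8% of all 11955 tested genes with a lower and 40.2% with a higher mean. H2-K1 averaged 11.88 ± 0.26 against 12.19 ± 0.75 (SD, n = 4), H2-D1 11.58 ± 0.52 against 12.01 ± 0.64 and B2m 12.13 ± 0.37 against 12.47 ± 0.41. The differences were -0.31 (SE 0.35), -0.43 (SE 0.36) and -0.33 (SE 0.30), close to the median of -0.31 over all genes tested. Without SJL_B6 replicate 2 the differences were 0.06 for H2-K1, -0.17 for H2-D1 and -0.17 for B2m. H2-D1 also moved to -0.69 without SJL_B6 replicate 1 and -0.21 without AD_B6 replicate 2, and B2m to -0.22 without AD_B6 replicate 1. That median was -0.07 over the 4941 of these genes with reads in all 12 libraries. Limma called none of the 7 (0% of all genes called), with adjusted p of 0.937 for H2-K1, 0.899 for H2-D1 and 0.915 for B2m. No member had an unadjusted p under 0.05, beside 5.41% of all genes.

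The intervals show what size of change these data could hold. For H2-K1 the 95% interval ran from -1.04 to 0.42, that is from 2.05-fold lower to 1.34-fold higher in AD_B6, and for B2m from 1.94-fold lower to 1.23-fold higher. The largest difference was that of Tap1, -3.83 (SE 2.11, 95% interval -8.18 to 0.52, adjusted p = 0.869 in limma), from 4.48 ± 4.69 and 8.31 ± 0.42 (SD, n = 4). The low AD_B6 values were those of replicates 2 and 3. Leaving out 1 library moved the difference between -2.34 (without AD_B6 replicate 3) and -5.26 (without AD_B6 replicate 1), and a pseudocount of 10 to -2.38. Of its 19 alternatives 2 had an unadjusted p under 0.05 (lowest 0.0307), with a lowest adjusted p of 0.655 in limma. H2-T23 differed by -2.01 (SE 2.21), by -0.56 after quantile normalization and by -1.03 without SJL_B6 replicate 4. Tapbp differed by -0.25 (SE 0.42), within -0.40 (without AD_B6 replicate 2) to -0.06 (without SJL_B6 replicate 2) when 1 library was left out. Tap2 differed by 0.75 (SE 0.77), and by -0.37 without SJL_B6 replicate 1. Of the 15 macrophage markers 13 had a lower mean in AD_B6, beside 59.8% of all genes tested. They made up 0.229 to 0.554% of a library there and 0.424 to 0.675% in SJL_B6. AD_B6 replicate 4, with the lowest share, had reads for 14 of the 15. Lower means were also found for 7 of 7 tested MHC class II genes, 7 of 7 lymphatic endothelial markers and 7 of 7 meningeal fibroblast markers. Their median differences were -0.91, -2.25 and -0.25, beside -0.31 over all genes tested, so the fibroblast markers were not lower than genes in general. Higher means in AD_B6 were found for 5 of 6 tested neutrophil and 3 of 4 dendritic cell markers. In these lists 0 genes were called, and their part in the class I differences was not tested.

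AD_TG and AD_B6 share AD in their titles and differ in TG and B6. Here 6 of the 7 members had a higher mean in AD_TG and Tap2 a lower one, beside 62.8% of all genes tested with a higher and 37.2% with a lower mean. With quantile-normalized values H2-T23 changed sign and 5 of 7 were higher. H2-D1 averaged 12.07 ± 0.42 against 11.58 ± 0.52 (SD, n = 4), a difference of 0.49 (SE 0.36, 95% interval -0.25 to 1.24, adjusted p = 0.874 in limma). The median difference was 0.41 over all genes tested, but 0.10 over the 4941 of them with reads in all 12 libraries, as H2-D1 had. H2-K1 differed by 0.22 (SE 0.35), B2m by 0.23 (SE 0.30) and Tapbp by 0.03 (SE 0.42). Without AD_TG replicate 3 the H2-K1 difference was -0.021, and the sign of Tapbp turned without any of 4 libraries (AD_B6 replicates 1 and 4, AD_TG replicates 1 and 3; lowest -0.09). H2-T23 differed by 1.66 (SE 2.21), Tap1 by 1.10 (SE 2.11) and Tap2 by -0.34 (SE 0.77). The Tap1 difference was 0.26 after quantile normalization and 0.12 with a pseudocount of 10, and that of H2-T23 was 0.89 without AD_TG replicate 3. Leaving out 1 library gave 0.27 (without AD_B6 replicate 2) at the lowest for H2-D1, 0.10 (without AD_TG replicate 3) to 0.43 (without AD_TG replicate 2) for B2m, and -0.58 (without AD_TG replicate 3) to -0.15 (without AD_TG replicate 1) for Tap2. None was called (0% of all genes), and none had an unadjusted p under 0.05, beside 5.35% of all genes.

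In this comparison the interval for H2-K1 reached from 1.42-fold lower to 1.93-fold higher and that for B2m from 1.32-fold lower to 1.81-fold higher. For Tap1 it reached from 9.47-fold lower to 43.8-fold higher, and for Tap2 from 3.81-fold lower to 2.38-fold higher. The difference of Tap1 was -0.10 without AD_B6 replicate 2 and -0.39 without AD_B6 replicate 3, but 2.54 without AD_B6 replicate 1, 2.37 without AD_B6 replicate 4 and 0.10 without AD_TG replicate 1. Of the 15 macrophage markers 14 had a higher mean in AD_TG, at 0.351 to 0.540% of a library beside 0.229 to 0.554% in AD_B6. So did 12 of 15 tested interferon response genes, 6 of 7 MHC class II genes, 6 of 7 choroid plexus markers and 4 of 4 dendritic cell markers. These stand beside 62.8% of all genes tested, and the lists were not counted after quantile normalization. Lower means in AD_TG were found for 5 of 5 tested erythroid and 4 of 6 neutrophil markers. In these lists 0 genes were called. Whether any of these genes moved with the class I values was not tested.

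Between AD_TG and SJL_B6 the differences of the classical chains and B2m were the smallest of the 3 comparisons, although no test compared them. H2-K1 differed by -0.09 (SE 0.35), H2-D1 by 0.06 (SE 0.36) and B2m by -0.10 (SE 0.30), with a 95% interval for B2m of -0.73 to 0.52. Leaving out 1 library turned the sign of each, with ranges of -0.33 to 0.28, -0.20 to 0.32 and -0.25 to 0.09. Of the 7 members 5 had a lower mean in AD_TG, beside 46.7% of all genes, and 2 a higher one, beside 53.3%. Tap1 had the largest difference, -2.73 (SE 2.11), with 5.59 ± 2.73 in AD_TG and 8.31 ± 0.42 in SJL_B6 (SD, n = 4). H2-T23, Tap2 and Tapbp differed by -0.34 (SE 2.21), 0.41 (SE 0.77) and -0.22 (SE 0.42), and Tap2 by -0.70 without SJL_B6 replicate 1. Tap1 differed by -1.76 without AD_TG replicate 2, and Tapbp by -0.01 without it. Each adjusted p in limma was 0.999, 0% of all genes were called, and no member had an unadjusted p under 0.05, beside 2.99% of all genes. The 3 comparisons share libraries pairwise, so their directions are not independent.

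**Figure D4:**
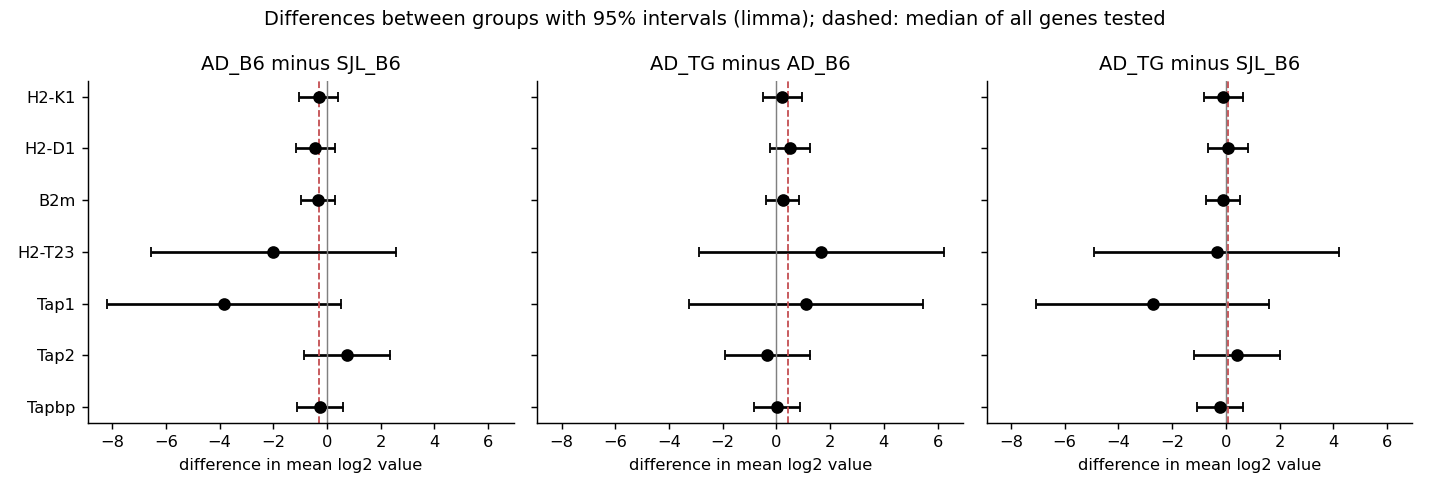
Difference in mean log2 value (x axis, log2 units) for each member (y axis) in the 3 comparisons; points are limma estimates, bars 95% intervals, and the dashed line is the median of all genes tested. Every interval includes 0, and those of Tap1 and H2-T23 are several times wider than those of H2-K1, H2-D1, B2m and Tapbp.

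No member's groups separated fully in any comparison. Among all genes tested, 0.912% lay wholly higher and 1.91% wholly lower in AD_B6 than in SJL_B6, 1.95 and 0.928% in AD_TG than in AD_B6, and 1.46 and 1.07% in AD_TG than in SJL_B6. By group mean, H2-K1 and B2m were ordered SJL_B6, AD_TG, AD_B6 and H2-D1 AD_TG, SJL_B6, AD_B6, with no neighbours in either order differing beyond the spread of their libraries.

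The rest of the pathway was followed in a list of 53 genes that contains the members; all 53 were in the files and 46 could be tested. In AD_TG against AD_B6, 37 of the 46 had a higher mean (80.4%, beside 62.8% of all genes), and with quantile-normalized values 27 of 46 (58.7%, beside 55.5%). In AD_B6 against SJL_B6, 32 of 46 had a lower mean (69.6%, beside 59.8%), or 29 of 46 (63.0%, beside 54.3%) after quantile normalization. In AD_TG against SJL_B6 the list was divided evenly, 23 and 23. Limma called none of the 46 in any comparison, and an unadjusted p under 0.05 was reached by 3 of them for AD_B6 minus SJL_B6, 1 for AD_TG minus AD_B6 and 0 for AD_TG minus SJL_B6, beside 5.41, 5.35 and 2.99% of all genes.

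Among the 19 class I chains, 13 could be tested, and 12 of the 13 had a higher mean in AD_TG than in AD_B6, beside 62.8% of all genes. The 13 were not counted after quantile normalization, where H2-T23, which is among them, changed sign (-0.10). Several of the 13 had reads in few libraries, with 5 for H2-Bl, 6 for H2-M2 and 7 each for H2-Q2 and H2-Q10. H2-T22, a non-classical chain, had nearly the same mean in each group, with means of 7.94 ± 1.29, 7.97 ± 0.71 and 7.99 ± 0.68 (SD, n = 4) in the groups SJL_B6, AD_B6 and AD_TG. H2-Q6 and H2-M9 had no reads in any library, and H2-L had them in 4. Of the chaperones of the loading step, Calr (calreticulin) averaged 11.80 ± 0.06, 11.49 ± 0.30 and 12.01 ± 0.36 in SJL_B6, AD_B6 and AD_TG (SD, n = 4), and its difference of 0.52 between AD_TG and AD_B6 (SE 0.31, adjusted p = 0.871 in limma) was near that of H2-D1. Canx (calnexin) averaged 11.34 ± 0.32, 11.32 ± 0.36 and 11.46 ± 0.29 in the same order, and Pdia3, the disulfide isomerase bound to tapasin, 11.44 ± 0.37, 11.43 ± 0.42 and 11.49 ± 0.34. Nlrc5, the class I transactivator, had reads in 4 of the 12 libraries, so its level could not be followed.

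The further genes Tapbpl, Psmb10 and Fcgrt had the largest differences relative to their error in AD_B6 against SJL_B6. Tapbpl, the relative of tapasin that edits bound peptides, gave 8.41, 9.26, 7.50 and 8.25 for SJL_B6, then 6.06, 5.68, 0.75 and 4.77 for AD_B6, then 5.83, 1.73, 8.32 and 7.38 for AD_TG. All AD_B6 values lie below all SJL_B6 values, while AD_TG overlaps both. Tapbpl was the only one of the 46 that lay wholly lower, beside 1.91% of all genes. Tapbpl differed by -4.04 (SE 1.87) in AD_B6 against SJL_B6 (adjusted p = 0.869 in limma). Psmb10, an interferon-induced proteasome subunit, differed by -3.60 (SE 1.70), and Fcgrt, the IgG receptor that pairs with B2m, by -1.91 (SE 0.85), each with an adjusted p of 0.869 in limma. Fcgrt stood at 4.51 in AD_B6 replicate 2 and at 8.64 to 10.78 in all other libraries.

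For AD_TG against AD_B6 these genes were Hfe, Fcgrt and Psme2. Hfe, a class I-like protein of iron control, differed by -2.04 (SE 0.96), from 6.95 ± 1.30 against 8.99 ± 1.34 (SD, n = 4). Fcgrt differed by 1.74 (SE 0.85) and Psme2, a subunit of the interferon-induced proteasome activator, by 2.63 (SE 1.49). Each had an adjusted p of 0.871 in limma. For AD_TG against SJL_B6 they were Nfyb, a subunit of NF-Y, by 3.35 (SE 1.67), with SJL_B6 replicate 4 at 0.88 and the other SJL_B6 libraries at 5.95 to 8.49, Hfe by -1.54 (SE 0.96) and Rfxap, a subunit of the RFX complex, by -3.25 (SE 2.28). Each had an adjusted p of 0.999 in limma.

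**Figure D5:**
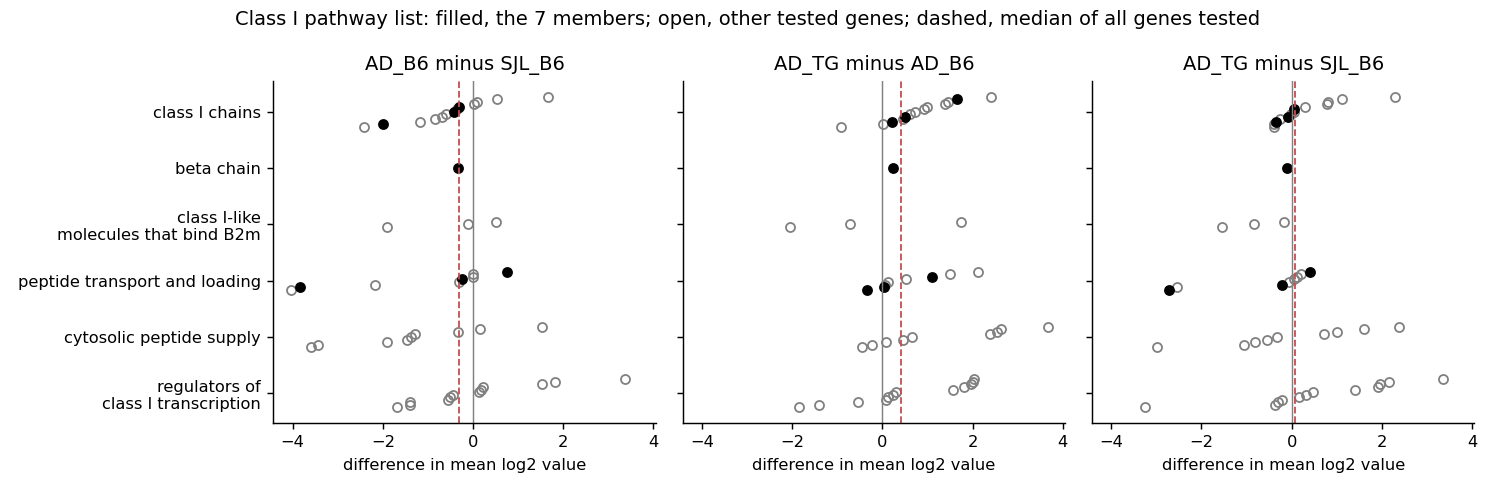
Difference in mean log2 value (x axis, log2 units) for the 46 tested genes of the class I pathway list, by role (y axis; the height within a row only spreads the points by rank); filled points are the 7 members, open points the other genes, and the dashed line is the median of all genes tested. In AD_TG minus AD_B6, 37 of the 46 points lie above 0, around a median of all genes of 0.41.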

How the data were processed

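RNA of 12 libraries, 4 in each of 3 groups named by their titles, was made into QuantSeq libraries from 500 ng of total RNA, per the labels' protocols. The authors deposited 1 log2 value per gene symbol and library; the values are log2(x + 1) of scaled amounts, and the scaling is not given in the sources used here. Bowtie2, bedtools and hg19, a human build, appear with no role per the submitters' processing notes, while organism and symbols are those of the mouse. Each file held 23282 entries; for 35 symbols with several entries the one with the highest mean was kept. Within a library the low linear values were multiples of 1 step (0.698 to 1.73 between libraries), read as 1 read (91.3 to 100% of values from 0.3 to 20 lay within 0.15 of a whole step), and linear values divided by the step gave estimated reads, which are not independent molecules. Median estimated reads were lowest for H2-T23 (25) and Tap1 (185). A gene had reads at a linear value of 0.3 or more.

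Limma 3.58.1 under R 4.3.3 was run on the 11955 genes at 10 or above on the linear scale in 4 or more libraries (lmFit, eBayes with trend, all 12 libraries in 1 fit, two-sided, Benjamini-Hochberg over all genes tested, threshold 0.05). The fit was also tried on values shuffled within each gene, with known shifts added to some genes of high mean. Those shifts were larger than any difference of H2-K1, H2-D1, B2m or Tapbp, so the trial does not show what change could be found for the members. No p was adjusted over the members alone. Alternatives were other filters, scalings and pseudocounts, no trend, the 2 compared groups alone, a replicate block and leaving out each library. Named were the 7 members, up to 3 pathway genes per comparison by difference over SE, and the 5 genes most correlated with the members' mean. Calr, Canx, Pdia3, H2-T22, H2-Bl, H2-M2, H2-Q2, H2-Q10, H2-Q6, H2-M9, H2-L and Nlrc5 were taken as examples after their values were seen. The members and lists were chosen with earlier results of these data known.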

Additional observations from a re-analysis of the deposited data

Results flagged for a closer look

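H2-K1 in SJL_B6 replicate 2, at 13.300, lay far above the other 3 libraries of its group: the gap to the next was 0.847 of the group's range, over Dixon's 95% critical value for 4 samples. It was the only one of 21 groups of member values to pass, and chance alone flags about 1 in 20. Without this library, H2-K1 differed by 0.06 between AD_B6 and SJL_B6.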

How the results depend on the processing

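No member passed under any alternative (lowest adjusted p in limma 0.655), and 10 of 21 member differences kept their sign in every one. Without the trend, limma called 10 genes in AD_B6 against SJL_B6, 10 in AD_TG against AD_B6 and 2, Dnah6 and Zfr2, in AD_TG against SJL_B6, none of them members; the cause was not tested. Of the 417 alternative values, 20 changed sign, 19 of them when 1 library was left out. The other was H2-T23 in AD_TG against AD_B6, at -0.10 after quantile normalization, which moved the median of all genes from -0.31 to -0.12 in AD_B6 against SJL_B6 and from 0.41 to 0.17 in AD_TG against AD_B6.

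Leaving out 1 library gave, in AD_B6 against SJL_B6, -0.48 to 0.0617 for H2-K1 (changed without SJL_B6 replicate 2) and -0.37 to 1.24 for Tap2 (SJL_B6 replicate 1). In AD_TG against AD_B6 it gave -0.021 to 0.34 for H2-K1 (AD_TG replicate 3), -0.39 to 2.54 for Tap1 (AD_B6 replicates 2 and 3) and -0.0936 to 0.24 for Tapbp (AD_B6 replicates 1 and 4, AD_TG replicates 1 and 3). In AD_TG against SJL_B6 it gave -0.33 to 0.28 for H2-K1 (SJL_B6 replicate 2, AD_TG replicates 1 and 2), -0.20 to 0.32 for H2-D1 (SJL_B6 replicate 1, AD_TG replicate 3), -0.25 to 0.0938 for B2m (SJL_B6 replicate 2, AD_TG replicate 2), -1.21 to 0.63 for H2-T23 (SJL_B6 replicate 4, AD_TG replicate 2) and -0.70 to 0.91 for Tap2 (SJL_B6 replicate 1).

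With the number in the titles as a replicate block, limma called 0 genes in each comparison (without the block also 0, with 647, 639 and 357 at an unadjusted p under 0.05). Deviations of same-numbered libraries correlated at -0.02 to 0.07 over 12 pairs, beside -0.07 to 0.06 over 36 pairs with different numbers. These values cannot show whether same-numbered libraries share animals or a batch.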
